A study of Musca domestica with 4 samples.

Results

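The predicted gene ALHF_04089.g2643 of the house fly, Musca domestica, was examined as 1 of the 6159 genes in the deposited expression table. It was picked by its identifier, and it was picked because of its values, above all a count of 0 in one strain, so its own levels are given below as a description with no test. Its coding region is 1053 nt, or 351 codons, and the annotation of the study lists it under the Pfam heading of the N-terminal domain of NAD-dependent glycerol-3-phosphate dehydrogenase. No genome position was used here, so the gene is placed only by its contig number.

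RNA was sequenced from 4 samples, each a pool of 20 whole adult females at 3 days of age, and the labels give 1 diet and temperature for all strains. ALHF is a multi-insecticide resistant strain from an Alabama poultry farm that was selected with permethrin in the laboratory and is still exposed to it in repeated rounds of selection, which the susceptible strains are not described to be. It has 2 libraries (n = 2) from separate fly samples, called ALHF 1 and ALHF 2 below by replicate number. CS is a wild type strain, long bred in the laboratory, that is susceptible to insecticides (n = 1). The aabys strain is also susceptible and carries a recessive visible marker on each of its 5 autosomes, namely ac, ar, bwb, ye and snp (n = 1). The reference genes were predicted from ALHF reads alone, and reads of all strains were assigned to them. Values with no second library therefore have no replicate check, and a lower count in whole flies cannot be told apart from fewer cells of a type, less RNA per cell, or strain sequence that does not map to the ALHF gene.

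The 4 libraries held 5523826 to 15085758 counts, and 5995 to 6066 of the genes were above 0 in each. Here a level is the count per 1000000 (CPM) after TMM normalisation, a scaling that sets the bulk of genes equal between libraries. Defining markers of tissues a whole fly holds were present in each library. All 22 predicted genes taken as muscle markers, several of which match the same fly gene, were above 0 in ALHF and aabys and 21 of 22 in CS. The 2 photoreceptor markers, Rh6 and ninaE, were above 0 in all 4. The level of muscle markers differed widely between the strains, and their values stand beside the results below.

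Cytosolic NAD-dependent glycerol-3-phosphate dehydrogenase reduces dihydroxyacetone phosphate, an intermediate of glycolysis, to glycerol 3-phosphate and turns NADH back into NAD+. In insect flight muscle a mitochondrial FAD-linked glycerol-3-phosphate dehydrogenase oxidises the product again, and the pair forms the glycerophosphate shuttle, which keeps glycolysis running during flight because lactate dehydrogenase is scarce there. Glycerol 3-phosphate is also the backbone from which glycerolipids are built. In Drosophila melanogaster, isozymes of the cytosolic enzyme come from alternative 3′ ends of a single gene and differ in a short carboxyl-terminal tail.

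ALHF_04089.g2643 was highest in ALHF, lower in aabys under TMM normalisation, and not detected in CS. Its count was 9723 in ALHF 1, 1895 in ALHF 2, 2799 in aabys and 0 in CS. After normalisation the levels were 1178 CPM, 401 CPM, 165 CPM and 0 CPM in the same order. Both ALHF libraries were above aabys and aabys was above CS, an order that 28.2% of the 6070 genes tested also had.

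The ALHF libraries were far apart for this gene. The mean was 789 ± 549.8 CPM (SD, n = 2), with ALHF 1 at 2.94-fold the level of ALHF 2. Of the 757 genes that held 1000 counts or more in each ALHF library, 18 (2.38%) differed more between those libraries than this gene did. The mean of ALHF was 4.78-fold the aabys level, or 2.26 on the log2 scale, but ALHF 2 alone was 2.43-fold above aabys, a smaller gap than the one between the ALHF libraries. The order of ALHF and aabys was therefore within the spread of the replicates, and it turned round when the libraries were scaled to the muscle markers, as given below.

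Per kilobase of coding length the gene stood at 1119 CPM per kb in ALHF 1, 380.4 in ALHF 2 and 157 in aabys. These levels ranked 182, 385 and 681 among the 6159 genes. It was thus among the more abundant transcripts in each of the 3 libraries where it was found.

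The 0 in CS was not at the limit of depth. At the aabys level, 2614 counts would have been found in the CS library. The floor of detection was set at 3 counts, which is 0.189 CPM in CS. Set against that floor in the CS library, the aabys level was at least 871-fold higher than CS, and the ALHF mean at least 4167-fold higher. Such a floor covers counting error only.

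Zero counts of this size were rare. A total of 164 genes were at 0 in CS, of which 55 were at 0 in all 4 libraries. Only 12 genes, 0.195% of the table, were at 0 in CS with at least 100 counts in each other library, and this gene was 1 of them. The other 11, which hold 2 pairs of twins with the same length and values and so 9 distinct genes, were all longer, from 2931 to 8919 nt, and their counts reached no more than 1298 in ALHF 1, 802 in ALHF 2 and 1372 in aabys. Among all genes at 0 in CS, ALHF_04089.g2643 had the highest count in ALHF 1 and in aabys and the second highest in ALHF 2, where ALHF_04601.g3073, a gene also at 0 in aabys, held 2946. With CS set at the floor of 3 counts, its log2 ratio of CS to aabys of -9.77 was also the lowest among the 6070 genes tested.

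Genes on contigs within 5 numbers of its own were read next, to see whether a neighbour of similar coding length held the reads missing in CS. Neighbouring numbers are an order of the assembly and do not place genes beside each other in the genome. There were 6 such genes, and 2 of them were within 5% of its length. Neither was above its aabys level in CS.

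The first, ALHF_04085.g2639 (1041 nt), had counts of 1869 and 1742 in ALHF, 3645 in aabys and 2435 in CS. At the aabys level it would have had 3404 counts in CS, so it was 969 counts short there. The second, ALHF_04086.g2640 (1017 nt), had 1589 and 648 counts in ALHF, 2063 in aabys and 687 in CS. It was 1240 counts short of its aabys level of 1927. Both genes were thus lower in CS than in aabys on the CPM scale, by 1.4-fold and 2.8-fold, and no annotation was used for either.

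**Figure D1:**
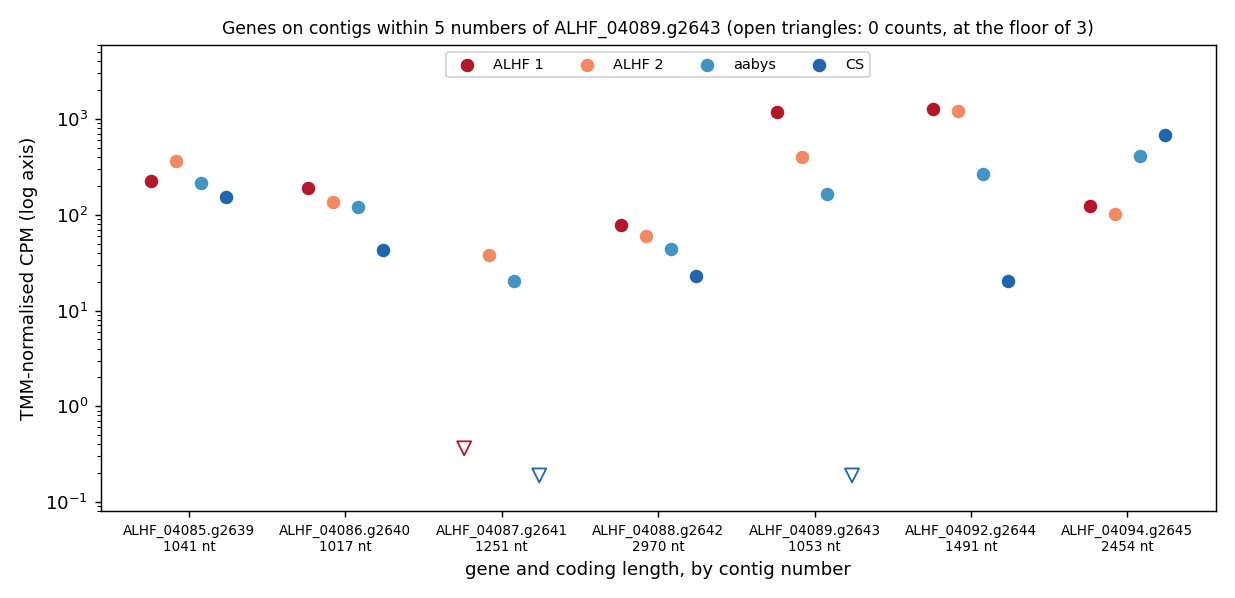
TMM-normalised CPM (log axis) of ALHF_04089.g2643 and of the 6 genes on contigs within 5 numbers of it, in 4 libraries shown as 1 point each; open triangles are counts of 0 drawn at the floor of 3 counts of that library. CS is the lowest library for ALHF_04085.g2639 and ALHF_04086.g2640, the 2 genes of similar length, and the highest for ALHF_04094.g2645 alone, which is 2454 nt long.

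The other 4 neighbours differed more in length. ALHF_04088.g2642 (2970 nt) had 651 and 281 counts in ALHF, 752 in aabys and 359 in CS. ALHF_04092.g2644 (1491 nt), listed under a LIM domain heading, a zinc-binding fold that mediates protein contacts and is common in muscle proteins, had 10530 and 5778 counts in ALHF, 4537 in aabys and 325 in CS. Its level in CS was 13-fold below aabys. ALHF_04094.g2645 (2454 nt), listed under an NTF2-like heading, was the only neighbour with an excess in CS. It had 1027 and 487 counts in ALHF, 6984 in aabys and 10685 in CS, which is 4163 counts above its aabys level. That excess is larger than the 2614 counts in question. ALHF_04094.g2645 is 133% longer than ALHF_04089.g2643 and was lower in both ALHF libraries than in aabys. Whether it held the reads in question was not tested.

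ALHF_04087.g2641 (1251 nt), 18.8% longer than the gene, was itself missing from 2 libraries. Its counts were 0 in ALHF 1, 181 in ALHF 2, 349 in aabys and 0 in CS. Another gene of exactly the same length, ALHF_11470.g6405, had the opposite pattern, with 560 counts in ALHF 1, 0 in ALHF 2, 0 in aabys and 85 in CS. Each library therefore gave counts to only 1 gene of this pair. Their summed level was 67.9 and 38.3 CPM in ALHF, 20.6 CPM in aabys and 5.37 CPM in CS. This pair was looked at after its values had been seen, because contig number 11470 precedes that of a gene described next.

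In the whole table, 353 other genes were within 5% of the coding length, and 178 of them were higher in CS than in aabys. That is near the share over all genes, as 3004 of the 6070 genes tested (49.5%) were higher in aabys than in CS. The excess of 4 of the 178 reached the 165 CPM in question. How many genes of other lengths had such an excess was not counted. The 4 were ALHF_00776.g424, ALHF_02073.g1180, ALHF_08924.g5474 and ALHF_01296.g709, chosen for this excess after their values were seen, and all 4 were lower in both ALHF libraries than in aabys. Their contigs lie 2016 to 4835 numbers away, and their sequences were not compared with that of the gene.

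The study's annotation puts 2 more genes under the same Pfam heading, ALHF_11471.g6406 and ALHF_11733.g6586. Each has a coding length of 1062 nt, 9 nt or 3 codons more than ALHF_04089.g2643. Their annotation, like that of ALHF_04089.g2643, came from the study's list of genes that differed between these libraries. A gene of this heading that did not differ may therefore have been missed. These 2 genes had the same value in each of the 4 libraries, so they are counted here as 1 gene unless stated. Whether the same reads were divided between them was not tested. Such twins were not unusual in the table, where 474 of the 6104 genes above 0 (7.77%) shared their length and all 4 values with another gene.

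ALHF_11471.g6406 was present in every library, including CS. Its counts in ALHF were 5208 and 4805, with 2641 for aabys and 189 for CS. The levels were 631, 1016, 155.8 and 11.9 CPM. The gene was higher in ALHF 2 than in ALHF 1, the reverse of ALHF_04089.g2643. The groups did not overlap, and 28.2% of the genes tested had the same order of strains. The quasi-likelihood test of edgeR did not call ALHF_11471.g6406, while the DESeq2 Wald test called it higher in ALHF than in aabys and than in CS. The DESeq2 Wald test called 8.09% and 22.1% of all genes higher in the same comparisons. The level of ALHF_11471.g6406 in CS was 13.1-fold below that in aabys, and 2277 counts short of it, so it held no excess in CS either.

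The share of ALHF_04089.g2643 in the counts of both genes moved from library to library. It made up 65.1% of the 14931 counts in ALHF 1 (exact Clopper-Pearson 95% interval 64.3 to 65.9%) and 28.3% of 6700 counts in ALHF 2 (27.2 to 29.4%). In aabys it was 51.5% of 5440 counts (50.1 to 52.8%). In CS it was 0 of 189 counts, with an interval of 0 to 1.93%, and a floor of 3 counts is 1.59% of the 189. These intervals cover counting error and not the spread between samples. The shares also depended on how the twins were counted. With each gene counted separately, they were 48.3% in ALHF 1, 16.5% in ALHF 2, 34.6% in aabys and 0% in CS. Had CS kept the ratio of aabys, its 189 counts for ALHF_11471.g6406 would have gone with 200 for ALHF_04089.g2643, and with 74.5 at the lower ratio of ALHF 2.

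**Figure D2:**
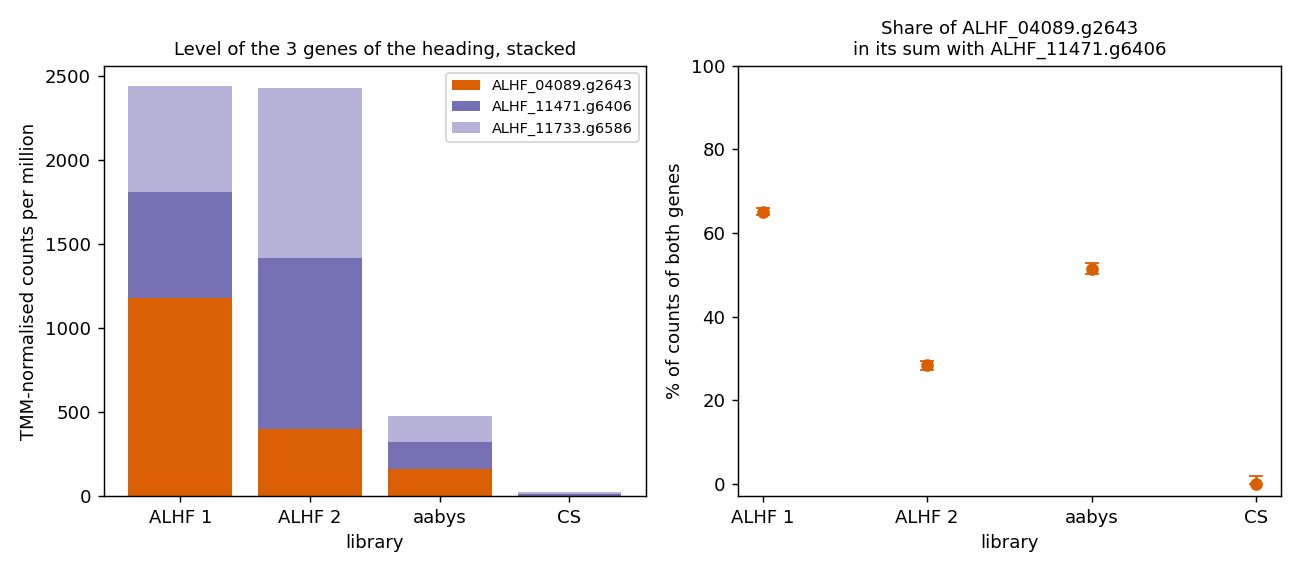
Left, TMM-normalised CPM of the 3 genes listed as NAD-dependent glycerol-3-phosphate dehydrogenase, stacked, with 1 bar per library; right, the share of ALHF_04089.g2643 in its summed counts with ALHF_11471.g6406, with exact 95% binomial intervals. The stacked bars of the ALHF libraries reach 2440 and 2432 CPM, while the share moves from 65.1% to 28.3% between them and is 0% in CS. With each gene counted separately, the share moves from 48.3% to 16.5% between the ALHF libraries. The order of ALHF over aabys turns round when libraries are scaled to muscle markers or an actin gene.

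Summed over the heading, the ALHF libraries came close together. With the twins counted once, the sum was 1809 and 1416 CPM in ALHF (1613 ± 278 CPM, SD, n = 2), 321 CPM in aabys and 11.9 CPM in CS. With each of the 3 genes counted separately, it was 2440 and 2432 CPM in ALHF, a difference of 0.331%, against 477 CPM in aabys and 23.9 CPM in CS. How the estimation divided reads among these genes was not tested, so the level of ALHF_04089.g2643 alone and the division of reads cannot be told apart.

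The sum kept the order of the strains, but every gene in it was annotated through the study's list of genes that differed between these libraries. ALHF was 5.03-fold above aabys with the twins counted once, and each ALHF library alone was above it, by 5.64-fold and 4.41-fold, whereas the ALHF libraries differed from each other by 1.28-fold. The sum in CS was 26.9-fold below aabys, or -4.75 on the log2 scale, and 19.97-fold below it with the genes counted separately. The sum holds the gene chosen for its 0 in CS, and ALHF_11471.g6406 alone was 13.1-fold below aabys. At the aabys level 5080 counts would have been found in CS, where 189 were. The single aabys and CS libraries give no spread of their own for this gap.

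The partner in the shuttle followed the same order. ALHF_00362.g185 has Gpo-1, the mitochondrial FAD-linked enzyme, as its best match in Drosophila melanogaster. Its counts were 30402 and 21081 in ALHF, 9993 in aabys and 1751 in CS, and its levels were 3684, 4456, 589 and 111 CPM. ALHF was 6.91-fold above aabys, and CS was 5.33-fold below it, an order that 28.2% of the genes tested had. The DESeq2 Wald test called the Gpo-1 gene higher in ALHF than in aabys and than in CS, where it called 8.09% and 22.1% of all genes higher. The groups did not overlap, but the difference did not pass the quasi-likelihood test of edgeR after Benjamini-Hochberg adjustment (adjusted p = 0.173 against aabys and 0.0629 against CS).

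The ratio of the partners needs no scaling between libraries. Per kilobase, the level of the Gpo-1 gene was 0.983 and 1.52 times the summed level of the cytosolic genes in ALHF and 0.887 times in aabys, with the twins counted once. In CS it was 4.47 times. The same ratio with each gene counted separately was 0.729 and 0.885 in ALHF, 0.597 in aabys and 2.24 in CS. Both sums hold the gene that was chosen for its 0 in CS, and so it adds to the cytosolic level of the other libraries only. Against ALHF_11471.g6406 alone, the ratio was 2.84 and 2.14 in ALHF, 1.84 in aabys and 4.51 in CS, so CS was the highest by a smaller margin. ALHF_11471.g6406 was also found through the study's list of differing genes, so this ratio is no independent evidence either.

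The pathways around the enzyme were read from lists. The calls over all genes give the background. With edgeR's quasi-likelihood test, 0 of 6070 genes (0.0%) passed in each of the 3 comparisons between strains, while 1062 genes (17.5%) had an unadjusted p under 0.05 for ALHF against aabys, 2558 (42.1%) for ALHF against CS and 568 (9.36%) for aabys against CS. None of the 48 list genes other than ALHF_04089.g2643 was called either. The DESeq2 Wald test called 10.2%, 33.2% and 3.26% of all genes in the same comparisons, and it called 31, 41 and 8 of the 48. The annotation of 10 of these 48 was taken from the study's list of genes that differed between the same libraries, and most of the others, the 2 photoreceptor markers among them, were also picked by the study on these libraries, so the direction of the lists is no independent evidence. The comparisons with ALHF share its libraries.

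Glycolysis supplies the NADH and the dihydroxyacetone phosphate that the enzyme uses. Of 10 glycolytic genes, 5 of them annotated through the study's own list of differing genes, 8 had both ALHF libraries above aabys and aabys above CS, against 28.2% of all genes. Their median log2 ratio was 1.29 for ALHF to aabys and -0.93 for CS to aabys, against -0.01 and 0.02 over all genes tested. No glycolytic gene passed edgeR's test, and DESeq2 called 3 of 10 higher in ALHF than in aabys (background 8.09%) and 9 of 10 higher in ALHF than in CS (22.1%).

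Triosephosphate isomerase, which forms dihydroxyacetone phosphate from its isomer, had the highest ratio of ALHF to aabys in the list. ALHF_05217.g3571 stood at 593 and 899 CPM in ALHF, 208 CPM in aabys and 229 CPM in CS, so it did not share the drop in CS. Glyceraldehyde 3-phosphate dehydrogenase, which makes the cytosolic NADH of glycolysis, stood at 7524 and 7585 CPM in ALHF, 2337 CPM in aabys and 1737 CPM in CS. Its CS level was -0.43 from aabys on the log2 scale. Phosphoglucomutase, which links glycogen to glycolysis, had the lowest ratio of ALHF to aabys, with 646 and 252 CPM in ALHF, 361 CPM in aabys and 188 CPM in CS, and there the ALHF libraries lay on both sides of aabys.

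Genes of the lactate and malate dehydrogenase family, whose enzymes also turn over NADH, behaved unevenly. The lactate dehydrogenase gene ALHF_00934.g518, with ImpL3 as its best Drosophila melanogaster match, was at 41.9 and 116.1 CPM in ALHF, 63.5 CPM in aabys and 64.5 CPM in CS, so the groups overlapped. The malate dehydrogenase gene ALHF_00676.g375 (best match Mdh1) was at 707 and 378 CPM in ALHF, 418 CPM in aabys and 424 CPM in CS, which also overlapped. Another gene of the lactate and malate dehydrogenase family, ALHF_05238.g3589, was at 3468 and 3058 CPM in ALHF, 936 CPM in aabys and 543 CPM in CS. Its annotation came from the study's list of differing genes and does not say whether the enzyme is cytosolic or mitochondrial.

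The acyltransferase genes that begin glycerolipid synthesis from glycerol 3-phosphate did not have the order of the shuttle genes. ALHF_00891.g493, whose best match is CG3209, was at 50.6 and 48.8 CPM in ALHF, 91.2 CPM in aabys and 135 CPM in CS. Its neighbour ALHF_00890.g492 was at 9.21 and 7.19 CPM in ALHF, 7.79 CPM in aabys and 3.28 CPM in CS. Neither passed edgeR's test (adjusted p = 0.353 and 0.967 against aabys).

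The 6 genes of the citric acid cycle and the ATP synthase all had both ALHF libraries above aabys and aabys above CS, against 28.2% of all genes tested. The annotation of 2 of them came from the study's list of differing genes. Their median log2 ratio was 1.92 for ALHF to aabys and -1.14 for CS to aabys. Citrate synthase, which starts the cycle, had the highest ratio of ALHF to aabys, with 4584 and 3478 CPM in ALHF, 673 CPM in aabys and 308 CPM in CS. DESeq2 called 4 of the 6 higher in ALHF than in aabys (background 8.09%) and all 6 higher than in CS (22.1%), and edgeR called none.

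**Figure D3:**
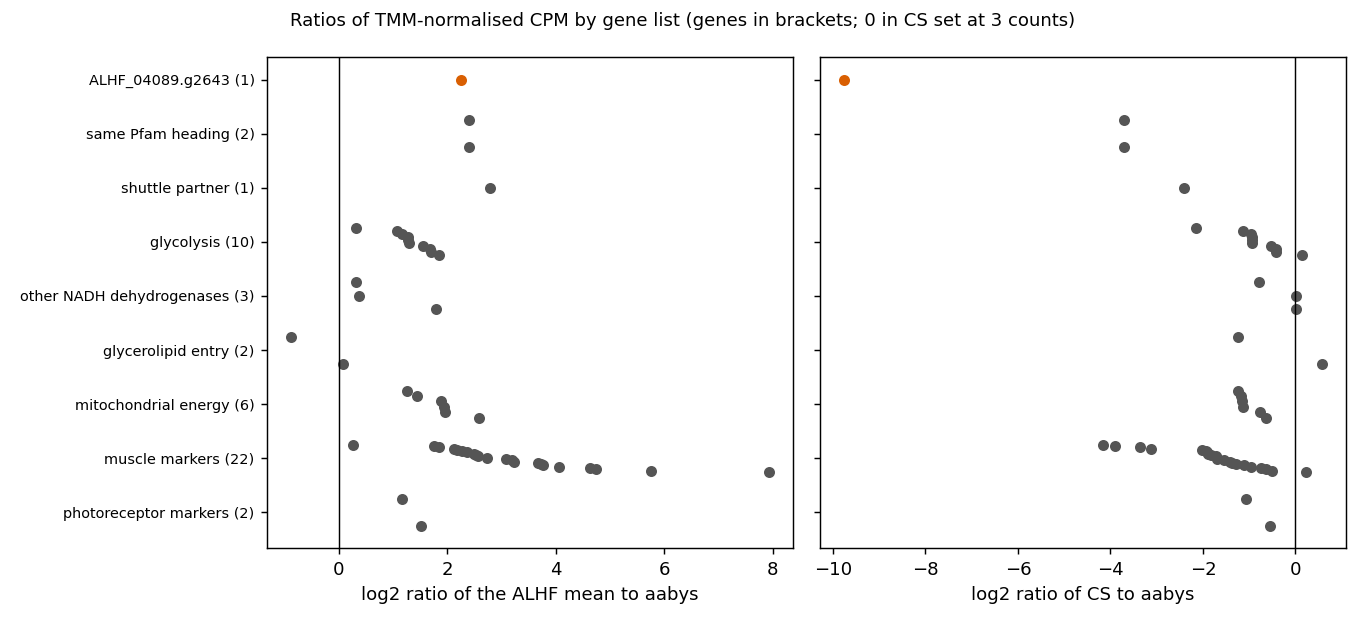
Log2 ratios of TMM-normalised CPM for ALHF_04089.g2643 (orange) and the 48 genes of the lists (grey), with the mean of 2 ALHF libraries against aabys on the left and CS against aabys on the right; each point is 1 gene, spread vertically within its list, and a 0 in CS is set at 3 counts. On the left the gene (2.26) lies within the ranges of the muscle markers and of the mitochondrial genes, near the shuttle partner (2.79), and on the right it lies apart from every list (-9.77); ratios of ALHF to aabys on the left turn negative for most genes when libraries are scaled to the muscle markers.

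Markers of muscle had the order of the shuttle genes. Of the 22 muscle markers, 21 had both ALHF libraries above aabys and aabys above CS, against 28.2% of all genes tested. These 22 are not separate fly genes. Those matching wupA, Tm1, Tm2, Mhc, Mlc1, Strn-Mlck or Zasp52 share their best fly match with at least 1 other marker. Their counts made up 10.9% and 8.86% of the ALHF libraries, 1.22% of aabys and 0.562% of CS. The median log2 ratio was 2.91 for ALHF to aabys and -1.69 for CS to aabys, with a range from 0.26 to 7.94 and from -4.17 to 0.23. One marker was at 0 in CS, the wupA gene ALHF_01627.g905, a troponin I gene, whose log2 ratio of CS to aabys was -3.90 at the floor. DESeq2 called 20 of 22 higher in ALHF than in aabys (background 8.09%), and edgeR called none. The 2 photoreceptor markers, both picked by the study as higher in ALHF on these libraries, had the same order, with a median log2 ratio of 1.34 for ALHF to aabys and -0.81 for CS to aabys. The part of muscle in the levels of ALHF_04089.g2643 was not tested.

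Per count of muscle marker, the gene did not follow the order of the strains. It had 8.81 and 3.87 counts per 1000 muscle marker counts in ALHF, 15.2 in aabys and 0 in CS. The sum of the cytosolic genes, with the twins counted once, was 13.5 and 13.7 per 1000 in ALHF, 29.6 in aabys and 2.7 in CS. On this scale the ALHF replicates nearly coincided, aabys was 2.18-fold above ALHF, and CS was 11.0-fold below aabys and 5.04-fold below ALHF. With each gene counted separately, the sum was 18.2 and 23.5 per 1000 in ALHF, 43.9 in aabys and 5.41 in CS. The closeness of the replicates therefore depended on how the twins were counted. The Gpo-1 gene had 27.5 and 43.1 counts per 1000 in ALHF, 54.3 in aabys and 25.1 in CS, so CS lay just below the ALHF libraries. Without the gene chosen for its 0 in CS, ALHF_11471.g6406 had 4.72 and 9.82 counts per 1000 in ALHF, 14.4 in aabys and 2.7 in CS. The level in aabys was 13.1-fold that in CS for ALHF_11471.g6406 and 2.46-fold for the summed muscle markers, while ALHF was 5.29-fold and 10.9-fold above aabys.

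Scaling of that kind changed the direction of the lists as well, along with that of most genes. Against the summed muscle markers, 0 of 10 glycolytic genes, 0 of 6 mitochondrial genes and 0 of the shuttle genes were higher in ALHF than in aabys. Of all 6070 genes tested, only 213 were, so the turn was not particular to the lists. For aabys against CS, 1 of 10 glycolytic and 0 of 6 mitochondrial genes were higher in aabys, beside 1058 of all 6070. The genes of the heading and the Gpo-1 gene stayed higher in aabys than in CS under this scaling and under that to an actin gene. With the actin gene, 555 of all 6070 genes were higher in aabys than in CS. The counts of that gene, ALHF_04132.g2678, were 104486 and 37580 in ALHF, 6153 in aabys and 1603 in CS.

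The 5 genes with the pattern most like that of ALHF_04089.g2643 were found by the root mean square difference of centred log2(CPM + 1) over the 4 libraries. ALHF_02223.g1280 (1062 nt) was the nearest, with a difference of 0.671. Its counts were 60495 and 4229 in ALHF, 10830 in aabys and 101 in CS, so its CS count was low but above 0. Its length equals that of ALHF_11471.g6406, and no annotation was used for it.

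Behind it came ALHF_05239.g3590 (0.981), ALHF_03264.g2007 (1.1), ALHF_04061.g2620 (1.17) and ALHF_05199.g3558 (1.32). ALHF_03264.g2007, listed with a gelsolin repeat, a fold of actin-severing proteins, had 1298 and 802 counts in ALHF, 560 in aabys and 0 in CS. ALHF_04061.g2620, listed with a chitin-binding Peritrophin-A domain as found in gut lining and cuticle proteins, had 10883 and 1002 counts in ALHF, 866 in aabys and 27 in CS. ALHF_05199.g3558 had 11969 and 291 counts in ALHF, 1987 in aabys and 11 in CS, and ALHF_05239.g3590 had 9505 and 738 counts, 965 and 13. In 4 of the 5 genes, all but ALHF_03264.g2007, ALHF 1 was well above ALHF 2, by 6.23-fold to 23.6-fold after normalisation. The genes were chosen on these same values, so their likeness to ALHF_04089.g2643 follows from the choice.

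**Figure D4:**
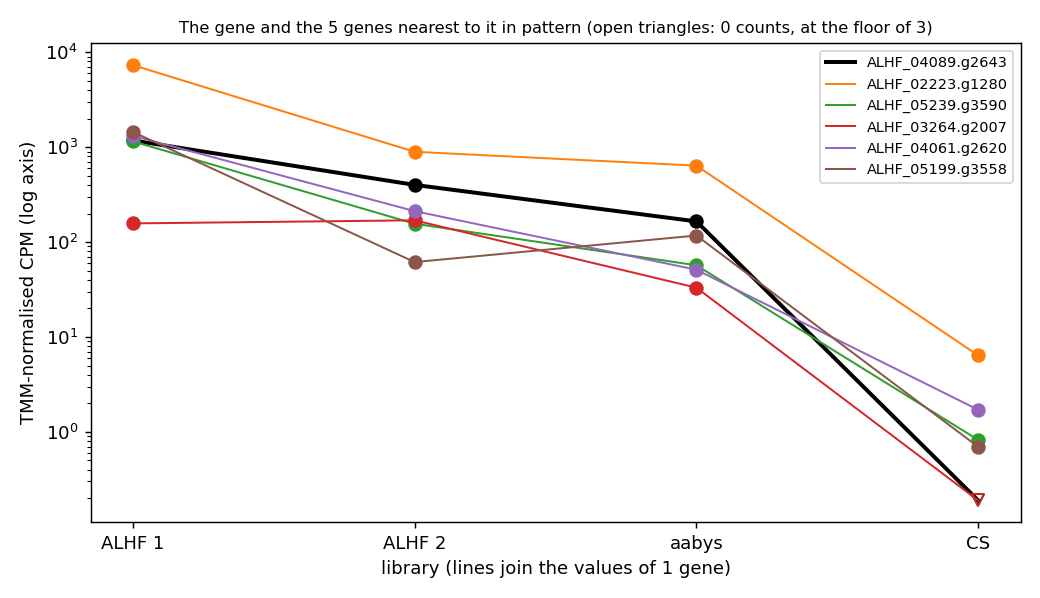
TMM-normalised CPM (log axis) of ALHF_04089.g2643 (black) and the 5 genes nearest to it in pattern, by library; lines only join the values of 1 gene, and open triangles are counts of 0 drawn at the floor of 3 counts. Each gene is at its lowest in CS, where ALHF_04089.g2643 and ALHF_03264.g2007 are at 0 and ALHF_02223.g1280 is at 6.38 CPM. The 5 genes were chosen for this likeness on the values shown.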

How the data were processed

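Libraries of 4 pools of whole female flies were used. Per the labels and methods, poly(A) RNA was sequenced as read pairs, ALHF reads were assembled with Trinity r2012-05-18 and CAP3, Augustus 2.5.5 predicted coding regions, and RSEM estimated expression. No version of RSEM is given in sources used here. The authors deposited 1 table whose header says FPKM, but the values are whole numbers whose products with coding length in kb sum to 12123000 or more per library, where FPKM allows 1000000. They were treated as estimated counts, which the authors deposited as whole numbers without normalisation. Each level rests on this.

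Counts were analysed with edgeR 4.0.16 (TMM, filterByExpr, which kept 6070 of 6159 genes, and the quasi-likelihood test) in R 4.3.3, all 4 libraries in 1 fit by strain, with Benjamini-Hochberg adjustment over genes tested and a threshold of 0.05. Only ALHF has replicates, so aabys and CS were assumed to vary like it. DESeq2 1.42.0 and limma 3.58.1 were alternatives. The tests were run on simulated counts with less spread between libraries than the common dispersion of 0.196 fitted here. That run therefore does not show how many real differences the tests would find in these data. Other values came from Python 3.11.15. A 0 was set to a floor of 3 counts in that library for folds. Alternatives were other scalings (DESeq2 size factors, library size, none, and, chosen after seeing the data, an actin gene and the summed muscle markers), no filter, other windows, lengths and minimums, and each ALHF library left out.

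Genes were named by a rule: the gene itself, genes on contigs within 5 numbers, genes of the same Pfam heading, the shuttle partner, extremes of the lists, the 5 genes nearest in pattern, and genes at 0 in CS with more counts elsewhere. Genes outside it are said to be chosen after their values were seen. The gene and all lists were chosen with earlier results of these data known. List annotation is the study's, with an annotation table held only in part; of the deposited identifiers 0 matched the RefSeq gene table, so no sequence is shown. The accession column was not used.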

Additional observations from a re-analysis of the deposited data

How the results depend on the processing

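No paired analysis was possible because the susceptible strains were each sequenced from a single sample. With either ALHF library left out no residual degrees of freedom remained, so those settings gave values with no test. The mean level of ALHF_04089.g2643 in ALHF then ran from 401 to 1178 CPM, its log2 ratio of ALHF to aabys from 1.28 to 2.83, its lower bound of ALHF over CS from 2115 to 6219-fold, and the log2 ratio of ALHF to aabys of the heading's sum from 2.142 to 2.495. Relative to TMM, the median log2 ratio of ALHF to aabys over all genes moved by -0.43 with library size alone, -1.39 with no scaling, -4.75 with scaling to the actin gene and -3.43 with scaling to the summed muscle markers, the last 2 chosen after seeing the data. The aabys level of the gene was 185.5 CPM with library size alone, 276.6 with no scaling, 630.7 with the actin gene and 434.0 with the muscle markers, and the ALHF mean under the last 2 was 99.5 and 180.9 CPM. The gene's log2 ratio of ALHF to aabys was 1.05 with no scaling and turned negative with the actin gene (-2.67) and the muscle markers (-1.26), both of which hold more counts in ALHF. That of the heading's sum was 1.90 with library size alone, 0.99 with no scaling, -2.46 with the actin gene and -1.12 with the muscle markers. The lower bound of aabys over CS was 769-fold with library size alone, 933-fold with no scaling, 243-fold with the actin gene and 354-fold with the muscle markers, and that of ALHF over CS was 38.3-fold and 147.7-fold under the last 2. The sum's log2 ratio of CS to aabys was -4.32 with each gene counted separately, -2.91 with the actin gene and -3.45 with the muscle markers, so CS was below aabys under each setting run. Calls depended on the tool and scaling. For ALHF against aabys edgeR called 32 genes with DESeq2 size factors and 22 with library size alone, and the DESeq2 Wald test 619, with 5, 2 and 31 of the 48 list genes. For ALHF against CS the counts were 1015, 1654 and 2013, with 36, 34 and 41 list genes, and limma called 17 genes with 4 of the lists. For aabys against CS the DESeq2 Wald test called 198 genes and 8 of the lists, and the other settings called 0. The cause of these differences was not tested. Genes at 0 in CS numbered 16 with a minimum of 50 counts in each other library and 2 with a minimum of 500. Lengths within 10% or a window of 10 contig numbers left 2 neighbours of similar length, and lengths within 20% gave 3. Of the 5 genes nearest in pattern, 4 were shared with a pseudocount of 0.5 and 5 with library size alone.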
